A study of Rattus with 52 samples.

Results

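Collagens are the main structural proteins of the extracellular matrix. Each collagen is a trimer of chains, and each kind of chain is encoded by its own gene. The collagen chains described here are the 43 rows, of 20624 in the gene table, whose gene symbol is Col followed by a type number, the letter a and a chain number. Of these, 10 are fibrillar chains, 6 are type IV chains of the basement membrane and 27 belong to other classes. Col23a1 has 2 rows, and 1 further row whose symbol begins with Col (Col4a3bp) encodes no collagen chain. Col1a2, Col21a1 and Col25a1 were not analysed here, so type I collagen is represented by Col1a1 alone. Tested genes had 10 or more normalized reads (reads divided by the size factor of the library) in a number of libraries equal to the size of the smaller group. By this filter 40 of the 43 rows were tested in at least 1 comparison, and Col10a1, Col26a1 and the Col23a1 row ENSRNOG00000046785 in none.

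Polyadenylated RNA of the left kidney and of the left ventricle (LV) was sequenced from male Sprague Dawley rats, an outbred laboratory strain, that were operated on at 10 weeks of age. The first surgery was a subtotal nephrectomy (5/6Nx) or a Sham procedure. The 5/6Nx removes the right kidney and, by excision, both poles of the left, so that the kidney sampled in these rats is the remnant, whereas the Sham kidney is intact. A catheter was placed in the abdomen of every rat, with removal of the omentum. PD rats then received dialysate 3 times a day for 8 days from week 6 after the first surgery, Control rats carried the catheter without dialysate, and tissue was taken at week 7. In each tissue there were 6 Sham Control, 6 Sham PD, 7 5/6Nx Control and 7 5/6Nx PD libraries. The labels do not state which kidney and LV library came from 1 rat. Comparisons across tissues therefore treated the libraries as independent, and p-values measure the spread between libraries.

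The libraries held 16677918 to 111849466 reads in the table. Myh6, the cardiac myosin heavy chain, had 540880 to 1374100 normalized reads in the LV libraries and 0 to 187 in the kidney libraries, and Umod, the uromodulin of the thick ascending limb, had 89078 to 477340 in the kidney and 0 to 122 in the LV. The kidney library with 187 Myh6 reads was Sham PD replicate 4. These are whole-tissue samples, in which fewer cells of a type and less RNA per cell cannot be told apart.

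Fibrillar collagens (types I, II, III, V, XI, XXIV and XXVII) are secreted as procollagens, trimmed by proteases and assembled into cross-linked fibrils, mostly by fibroblasts and related mesenchymal cells. Type IV collagen forms the network of basement membranes. Its Col4a1 and Col4a2 chains are made in nearly all tissues, whereas the Col4a3, Col4a4 and Col4a5 chains form the network of the mature glomerular basement membrane, which podocytes produce. The other classes include the fibril-associated collagens (types IX, XII, XIV, XVI, XIX, XX and XXII), the beaded filaments of type VI, the short-chain network of type VIII, the multiplexins XV and XVIII of vascular and epithelial basement membranes, type VII of anchoring fibrils, and transmembrane collagens. Deposition of fibrillar collagen in the interstitium is the hallmark of fibrosis in kidney and heart.

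In Sham Control rats the collagen rows together took 0.12% to 0.203% of the reads of a kidney library (median 0.159%) and 0.347% to 0.483% of those of an LV library (median 0.398%). The mix of classes differed between the tissues. Fibrillar chains took a median of 0.0153% of the kidney reads and 0.151% of the LV reads, and type IV chains 0.0939% and 0.141%. Of 35 collagen rows tested between Sham Control kidney and Sham Control LV, 13 were higher and 19 lower in the kidney (limma, adjusted p under 0.05), where 78.6% of all genes tested were called, 41.2% higher and 37.4% lower.

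By class, 2 of 9 fibrillar chains were higher and 6 lower in the kidney. Col3a1, the chain of type III collagen, had 1400 to 4718 normalized reads in the 6 kidneys (median 2640) and 39323 to 60714 in the 6 LVs (median 48029). The ratio of the means, kidney to LV, was 0.0560 for Col3a1, 0.0733 for Col1a1 (adjusted p = 1.41e-10) and 0.0485 for Col5a3. Col11a1, a chain that nucleates fibrils in cartilage, stood on the other side with a mean ratio of 8.23, from a median of 26.3 reads in the LV to 226 in the kidney.

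Among the type IV chains, Col4a1 and Col4a2 were lower in the kidney (mean ratios 0.216 and 0.231), and Col4a3, Col4a4, Col4a5 and Col4a6 were higher (4.13, 3.71, 2.29 and 1.61). Col18a1, the source of endostatin, was 4.50-fold higher in the kidney, with 12285 to 17584 reads against 3033 to 4241. The largest difference by ratio among the 10 chains of smallest p belonged to Col14a1, which had 0 to 62.3 reads in the kidney and 2247 to 3618 in the LV. Neither Col4a6 nor Col8a2 kept its call in this comparison under every alternative, with adjusted p up to 0.0716 and 0.115.

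The question of the surgery comparisons was how the remnant kidney and the heart of uremic rats differ from those of Sham rats. In the kidney most collagen chains were higher after 5/6Nx. Among Control rats 23 of 35 rows tested were higher and 3 lower (limma, adjusted p under 0.05), and among PD rats 22 of 36 were higher and 3 lower. Of all genes tested, 52.2% were called in the Control comparison (24.4% higher and 27.7% lower) and 40.1% in the PD comparison (20.2% higher and 19.9% lower). The median difference over the collagen rows was 1.13 on the log2 scale in Control rats and 0.86 in PD rats, against -0.01 in both comparisons over all genes tested. These log2 differences are on the deposited scale, which is compressed at low read numbers, so they understate the change of weakly expressed chains. In Control rats 11 collagen rows lay above and 2 below all Sham libraries in each 5/6Nx library, as 11% and 13.4% of all genes tested did. In PD rats 15 lay above and none below, as 7.75% and 8.12% of all genes did. The 2 comparisons have no library in common, and 20 chains were higher in both and the same 3, Col4a3, Col4a4 and Col13a1, lower in both. The share of all genes called in the same direction in both was not computed, so this overlap is not shown to be particular to collagens.

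**Figure D1:**
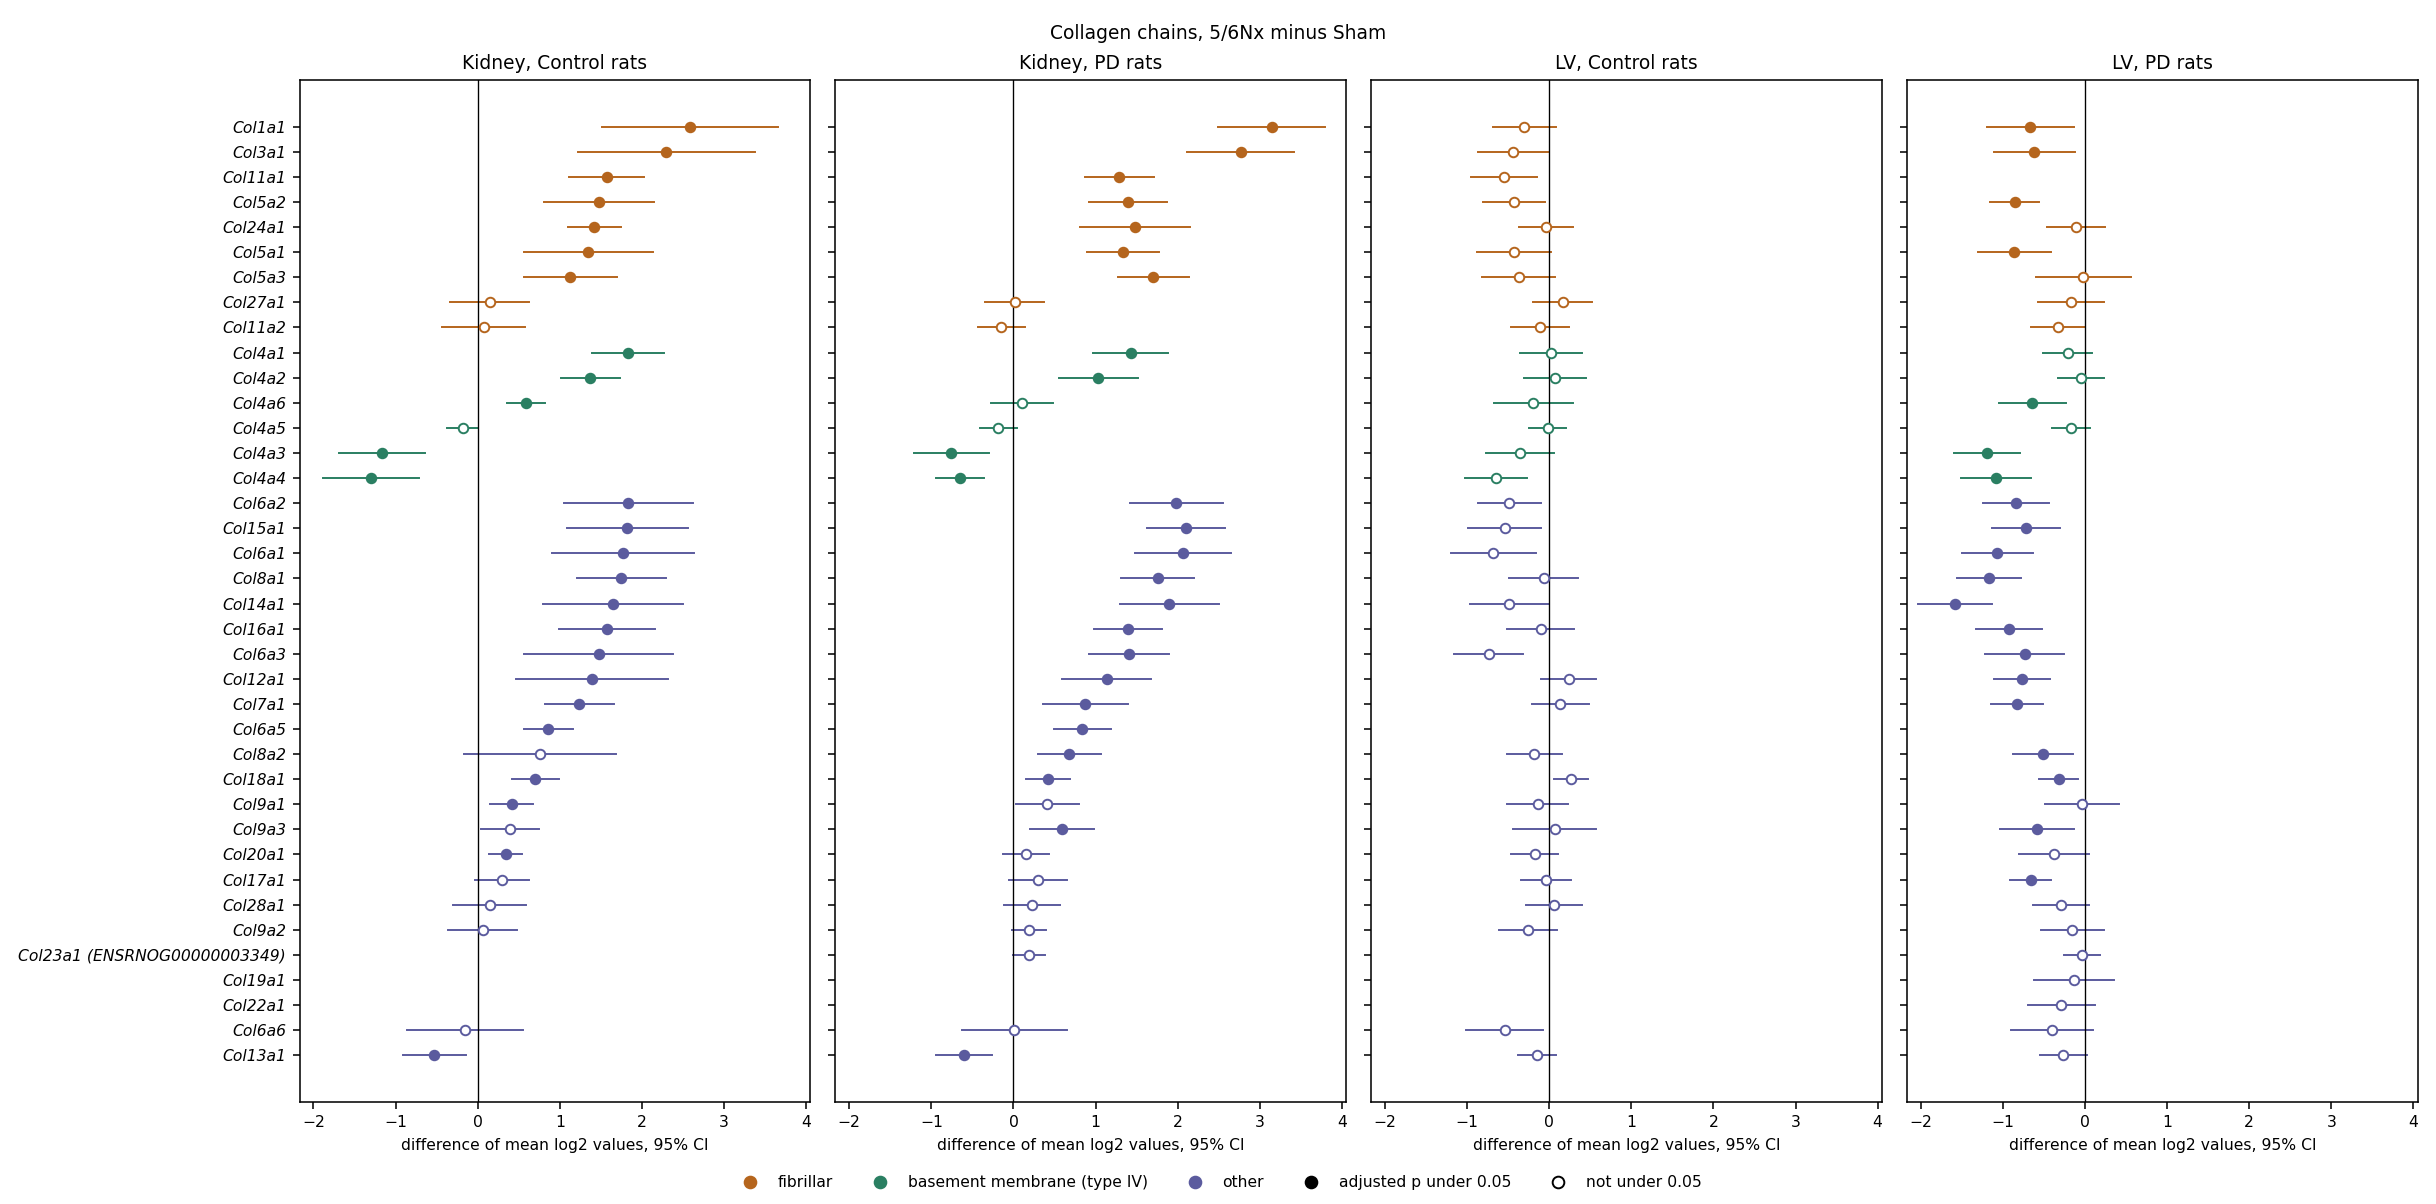
Difference of the mean log2 value, 5/6Nx minus Sham, for the 38 collagen rows tested in at least 1 of the 4 comparisons, one panel per tissue and treatment. Points are the limma estimates and lines their 95% confidence intervals, colours give the class, filled points have an adjusted p under 0.05, and a missing point was not tested. In both kidney panels the filled points of 7 fibrillar chains lie to the right of 0 and those of Col4a3 and Col4a4 to the left, and in the LV panel of PD rats the 20 filled points lie to the left.

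Of the 9 fibrillar chains tested in the kidney, 7 were higher in each comparison and none lower. The median log2 difference over the 9 was 1.42 in Control rats and 1.40 in PD rats. The fibrillar chains together took a median of 0.0153% of the reads of a Sham Control kidney, 0.0201% in Sham PD, 0.109% in 5/6Nx Control and 0.117% in 5/6Nx PD.

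Col1a1 had 616 to 1825 normalized reads in the 6 Sham Control kidneys (median 966) and 1794 to 18742 in the 7 5/6Nx Control kidneys (median 10414). The lowest 5/6Nx library lay just below the highest Sham library, and the other 6 above all Sham libraries. The means were 1074 ± 456 (SD, n = 6) and 8979 ± 6443 (SD, n = 7), an 8.36-fold difference (log2 difference 2.59 ± 0.50 SE, adjusted p = 0.000818). In PD rats Col1a1 went from 653 to 2476 reads (median 1406) in Sham to 8083 to 26869 (median 12144) in 5/6Nx. These groups did not overlap, and the difference was 9.82-fold (log2 difference 3.15 ± 0.31 SE, adjusted p = 1.24e-05).

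Col3a1 moved with Col1a1. Its Sham Control kidneys held 1400 to 4718 reads (median 2640) and its 5/6Nx Control kidneys 3372 to 33583 (median 18871), a 6.29-fold difference of the means (adjusted p = 0.00183). In PD rats the ranges were 2097 to 7356 and 13208 to 50655, 7.14-fold apart with no overlap (adjusted p = 2.16e-05). Within a library, Col3a1 had 1.97 to 2.87 times the reads of Col1a1 in the Sham Control kidneys and 1.79 to 2.32 times in the 5/6Nx Control kidneys, ranges that overlap.

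The type V chains, which set the diameter of type I fibrils, rose as well. Col5a1, Col5a2 and Col5a3 were 3.21-fold, 3.37-fold and 4.32-fold higher in Control rats and 2.83-fold, 2.87-fold and 6.36-fold higher in PD rats. Col11a1 was 4.14-fold and 3.20-fold higher, from 124 to 261 reads in Sham Control to 446 to 1534 in 5/6Nx Control kidneys, with no overlap. Col24a1, a minor fibrillar chain, had the smallest p among the collagens in Control rats (adjusted p = 1.82e-05), with 22.5 to 65.9 reads in Sham and 170 to 372 in 5/6Nx.

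The 2 other fibrillar chains tested were not called in the kidney. Col27a1 had a log2 difference of 0.15 in Control rats (95% CI -0.34 to 0.63) and 0.01 in PD rats (-0.34 to 0.37). For Col11a2 the values were 0.07 (-0.44 to 0.58) and -0.15 (-0.44 to 0.14). Col2a1, the cartilage chain, stayed under the filter, with no kidney library above 21.5 reads.

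**Figure D2:**
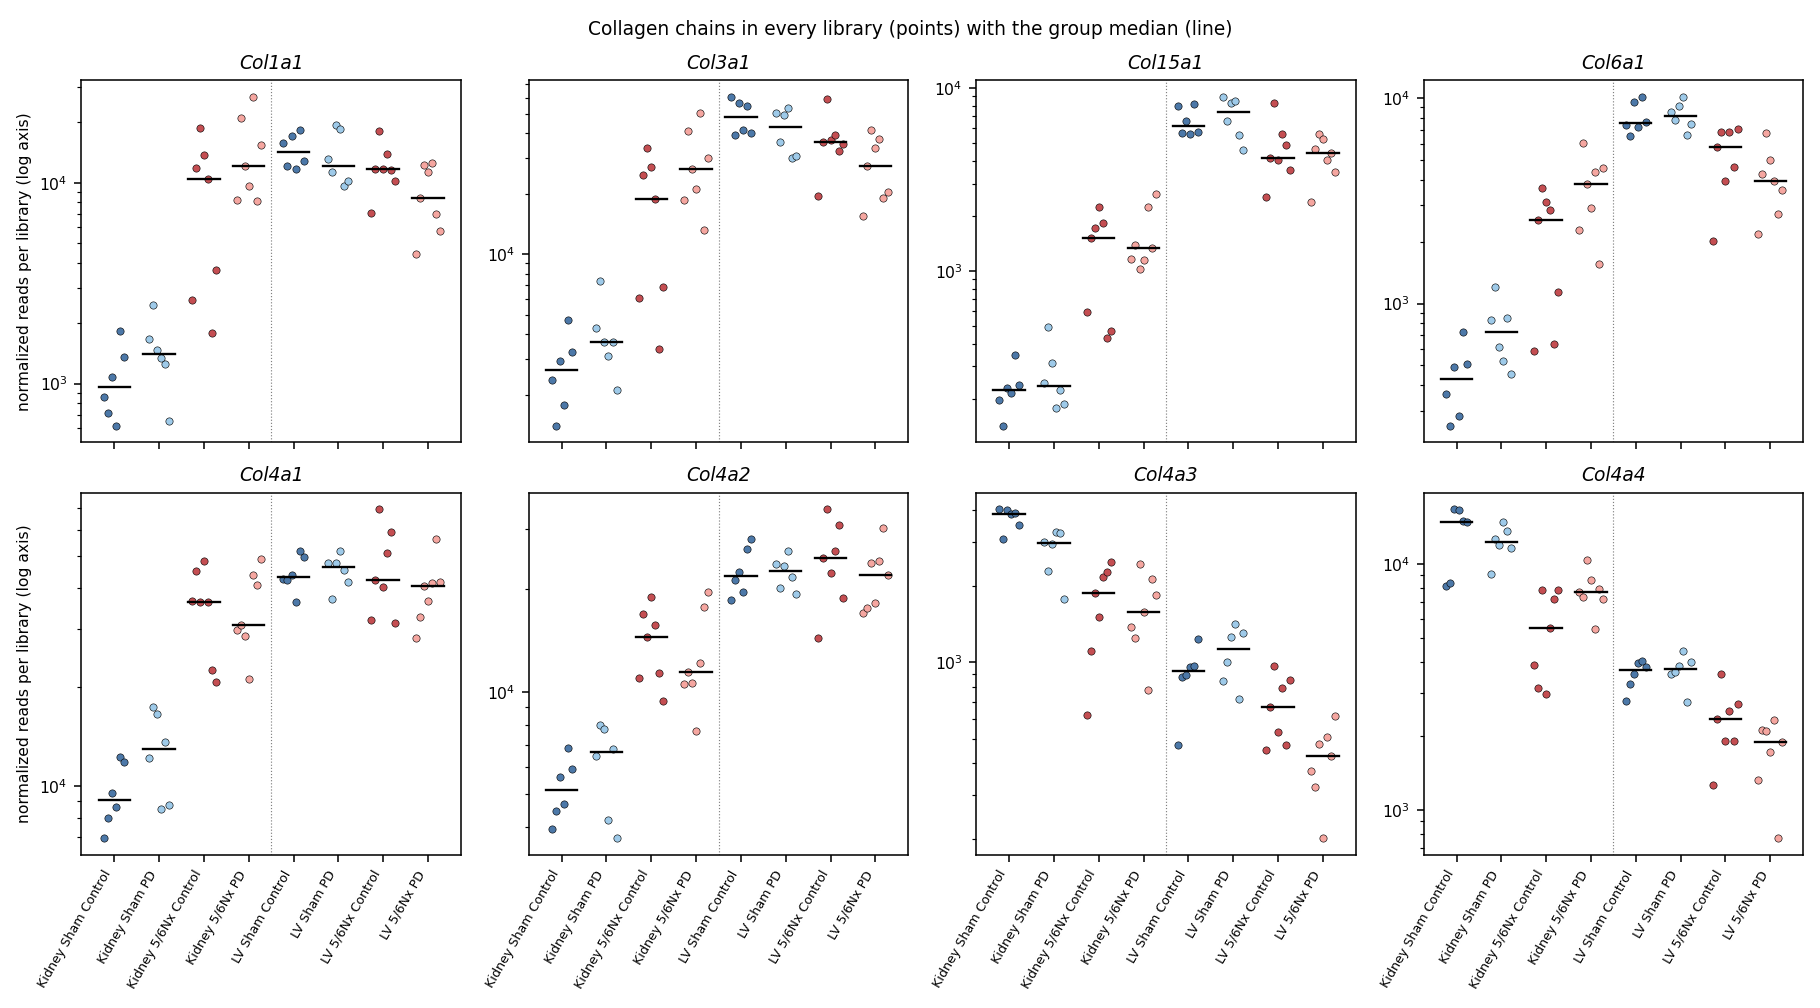
Normalized reads (log axis) of 8 collagen chains in every library, by group. Points are libraries, the black line is the group median and the dotted line separates kidney from LV. Kidney medians of Col1a1 rise from 966 in Sham Control to 10414 in 5/6Nx Control, those of Col4a3 fall from 3871 to 1879, and the lowest LV medians of Col4a3 and Col4a4 are those of 5/6Nx PD (426 and 1885).

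The type IV chains moved in both directions. Col4a1 rose from 6959 to 12308 reads (median 9107) in Sham Control kidneys to 20715 to 48233 (median 36328) in 5/6Nx Control kidneys, a 3.67-fold difference with no overlap (adjusted p = 2.46e-05). In PD rats Col4a1 was 2.70-fold higher, also with no overlap (adjusted p = 0.000166). Col4a2, its partner, was 2.66-fold higher in Control rats (adjusted p = 4.44e-05) and 2.08-fold higher in PD rats (adjusted p = 0.00252).

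Col4a3 and Col4a4 went the other way. For Col4a3 the Sham Control kidneys held 3067 to 4023 reads (median 3871) and the 5/6Nx Control kidneys 617 to 2482 (median 1879), a mean ratio of 0.462 with no overlap (adjusted p = 0.00138). Col4a4 had a median of 14878 reads (8106 to 16679) in the kidneys of Sham Control rats and of 5505 (2968 to 7828) in those of 5/6Nx Control rats, a mean ratio of 0.413 with no overlap (adjusted p = 0.00142). In PD rats the ratios were 0.592 for Col4a3 and 0.635 for Col4a4, both called, with overlapping groups.

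Col4a5, the chain that completes the glomerular trimer, was not called. Its log2 difference was -0.18 in Control rats (95% CI -0.37 to 0.01) and -0.18 in PD rats (-0.41 to 0.04), smaller than that of Col4a3 and Col4a4, although the difference between the chains was not tested. Col4a6, a chain of smooth muscle and some epithelial basement membranes, was 1.96-fold higher in Control rats (adjusted p = 0.000536) and had a log2 difference of 0.10 in PD rats (95% CI -0.27 to 0.48).

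Some podocyte markers were lower as well. Nphs1, the nephrin of the slit diaphragm, had 1161 to 2647 reads in Sham Control and 130 to 751 in 5/6Nx Control kidneys, a ratio of 0.204 with no overlap, and was at 0.417 in PD rats. Podxl was lower in both comparisons (ratios 0.557 and 0.620). Wt1 was lower in Control rats (ratio 0.406) and had a log2 difference of 0.13 in PD rats. Synpo was called in neither, with log2 differences of -0.37 and -0.08. Their part in the fall of Col4a3 and Col4a4 was not tested.

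The ratio of Col4a1 to Col4a3 reads within a library, which does not depend on the size factors, put the opposite directions in 1 number. Its median was 2.50 in Sham Control (range 1.73 to 3.41), 4.57 in Sham PD (2.60 to 7.59), 19.3 in 5/6Nx Control (8.34 to 58.9) and 21.6 in 5/6Nx PD kidneys (11.6 to 55.9). Each 5/6Nx kidney lay above each Sham kidney. The ratio joins a chain called higher with one called lower in these same libraries, so this separation follows in part from those calls. In the LV the median ratio was 48.5 in Sham Control, 37.2 in Sham PD, 70.9 in 5/6Nx Control and 84.6 in 5/6Nx PD. As a ratio of reads it also carries the lengths of the transcripts, so only the comparison between groups is informative.

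**Figure D3:**
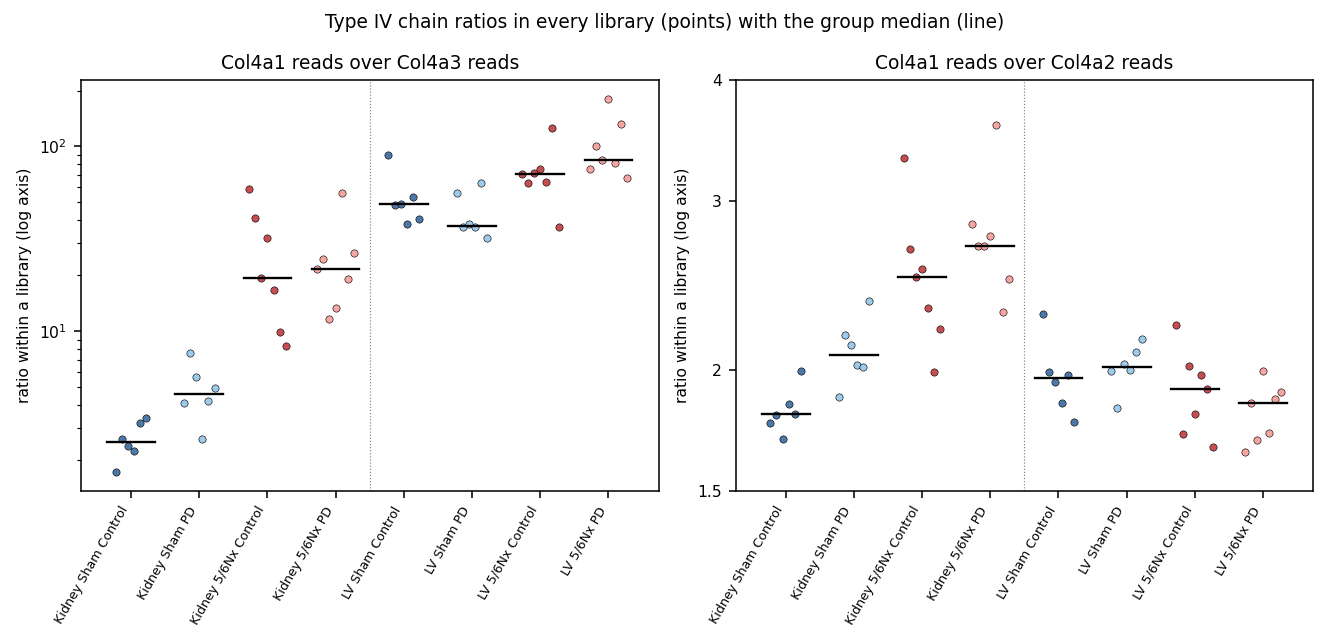
Ratio of Col4a1 to Col4a3 reads (left) and of Col4a1 to Col4a2 reads (right) within each library, by group, on log axes. Points are libraries and lines group medians. In the kidney the medians of the left panel rise from 2.50 (Sham Control) to 19.3 (5/6Nx Control), and those of the right panel from 1.80 to 2.50, while the LV medians of the right panel lie between 1.85 and 2.02.

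Col4a1 and Col4a2 form 1 trimer and lie next to each other in the rat genome. The median of their ratio was higher in the 5/6Nx than in the Sham kidneys. The ratio of Col4a1 to Col4a2 reads was 1.70 to 2.00 in Sham Control kidneys (median 1.80), 1.88 to 2.36 in Sham PD (median 2.08), 1.99 to 3.32 in 5/6Nx Control (median 2.50) and 2.30 to 3.59 in 5/6Nx PD (median 2.69). The 5/6Nx and Sham ranges overlapped at their ends, and this ratio was not tested.

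Of the other classes, 13 of 20 rows were higher and 1 lower in the kidneys of 5/6Nx Control rats, and 13 of 21 higher and 1 lower in those of 5/6Nx PD rats. All 3 classical type VI chains rose. Col6a1 was 4.73-fold, Col6a2 4.43-fold and Col6a3 3.45-fold higher in Control rats, and 4.88-fold, 4.35-fold and 2.76-fold higher in PD rats. Col6a5 was 3.46-fold and 3.11-fold higher. Col6a6, which had 597 to 1202 reads in Sham Control and 445 to 2114 in 5/6Nx Control kidneys, had log2 differences of -0.16 (95% CI -0.86 to 0.55) and 0.01 (-0.63 to 0.65).

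The multiplexins differed in size of change. Col15a1, of vascular and muscle basement membranes, had 142 to 348 reads in Sham Control and 427 to 2232 in 5/6Nx Control kidneys, 5.51-fold apart with no overlap (adjusted p = 0.000713), and was 5.70-fold higher in PD rats (adjusted p = 1.75e-05). Col18a1, whose kidney level was already high in Sham rats, was 1.65-fold higher in Control rats and 1.36-fold higher in PD rats.

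Col8a1, a short-chain collagen of vessel walls, had 75.4 to 120 reads in Sham Control and 233 to 1262 in 5/6Nx Control kidneys, 6.46-fold apart with no overlap (adjusted p = 0.000121). In PD rats it was 5.87-fold higher. Its partner Col8a2 was called in PD rats (1.76-fold) and had a 2.38-fold higher mean in Control rats with an adjusted p of 0.150. In PD rats the Col8a2 call was lost, with an adjusted p of 0.119, when all 4 kidney groups entered the fit.

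Among fibril-associated collagens, Col12a1, Col14a1 and Col16a1 were higher in both comparisons. Col14a1 rose from 0 to 62.3 reads (median 36.5) in Sham Control to 45 to 666 (median 295) in 5/6Nx Control kidneys and from 13.5 to 126 to 214 to 861 in PD rats. Col16a1 was 3.92-fold and 3.12-fold higher and Col12a1 3.16-fold and 2.22-fold higher. Col7a1, the anchoring fibril chain, was 3.79-fold and 2.61-fold higher. Col13a1, a transmembrane collagen, was the only chain outside type IV that was lower (mean ratios 0.459 and 0.411), and its call in Control rats was lost in 3 of 18 alternatives, with adjusted p up to 0.0765.

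The remaining chains had at most 373 reads in any kidney library. Col9a1, Col9a3 and Col20a1 were each called higher in 1 of the comparisons only, at 70.3 reads or fewer in any kidney library, and Col9a2, Col17a1 and Col28a1 in neither. Col6a4 had 0 to 2.96 reads in Sham Control and 5.9 to 30 in 5/6Nx Control kidneys and stayed under the filter. With no filter it was called higher in Control rats (limma, log2 difference 0.63, adjusted p = 0.000139). It passed the filter in the tissue by surgery interaction below, where its call was kept in all 31 alternatives. Col19a1, Col22a1 and the other Col23a1 row had at most 25 reads in any kidney library. The 3 rows tested in no comparison, Col10a1, Col26a1 and the Col23a1 row ENSRNOG00000046785, had at most 25 reads in any library of either tissue.

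The 5/6Nx Control kidneys were spread widely. Col1a1 was at 2602, 1794 and 3682 reads in replicates 1, 6 and 7 and at 10414 to 18742 in the other 4. The summed reads of the 7 fibroblast markers (Pdgfra, Dcn, Lum, Postn, Tcf21, Fap and Thy1) were 3533, 4714 and 4738 in the same 3 libraries and 14240 to 19010 in the other 4, against 5321 to 7986 in Sham Control. Lum, Postn and Fap were higher in 5/6Nx Control and Dcn, Lum, Postn, Fap and Thy1 in 5/6Nx PD kidneys. Slc34a1, the phosphate transporter of the proximal tubule, was at 4702 reads in replicate 1, the lowest of the group, and at 68200 and 43980 in replicates 6 and 7, the highest. Of the 4 proximal tubule markers, 3 were lower in both comparisons (median log2 difference over the 4 of -1.38 and -1.42). In each comparison the 1 marker not called had a positive log2 difference, of 1.08 in Control rats and 0.42 in PD rats. The sums were 213400 to 260500 in Sham Control and 33330 to 175400 in 5/6Nx Control kidneys, and 157300 to 238900 and 39670 to 120400 in PD rats. Of the 4 distal nephron markers, 2 were lower in Control rats and none in PD rats. Of the 6 pericyte and smooth muscle markers, 1 was higher in Control rats and 4 in PD rats, with sums of 8878 to 14740 in Sham PD and 11600 to 38860 in 5/6Nx PD kidneys. Of the 4 endothelial markers, 1 was lower in Control rats and 1 higher in PD rats. All 5 macrophage markers were higher in both comparisons, with sums of 1574 to 3955 in Sham Control and 4620 to 14280 in 5/6Nx Control kidneys. Among all genes tested, 24.4% were higher and 27.7% lower in Control rats, and 20.2% and 19.9% in PD rats. The endothelial counts, and the pericyte and smooth muscle count of Control rats, were near or under these shares. The part of these cell types in the collagen differences was not tested. Summed over all rows, collagens took 0.223% to 0.528% of the reads of a 5/6Nx Control kidney (median 0.481%) and 0.312% to 0.600% of those of a 5/6Nx PD kidney (median 0.411%), against medians of 0.159% and 0.184% in Sham Control and Sham PD. With any 1 kidney library left out there were 26 to 28 chains called in Control rats and 25 to 27 in PD rats, against 26 and 25.

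In the LV of Control rats none of 34 collagen rows was called after 5/6Nx (limma), where 0.0697% of all genes were. At an unadjusted p under 0.05 there were 1 higher and 10 lower, of all genes 7.77% and 9.69%. The median log2 difference was -0.18 over the collagen rows and 0.00 over all genes. Limma-voom with sample quality weights called 2 lower (Col4a4 and Col6a3). The 3 rows of smallest p were Col6a3 (mean ratio 0.619, adjusted p = 0.112), Col4a4 (0.650, adjusted p = 0.125) and Col11a1 (0.344, adjusted p = 0.169, with at most 44.1 reads in any library). Without 5/6Nx Control replicate 3, Col6a3, Col4a4 and Col15a1 were called lower.

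Col1a1 had 11758 to 18376 reads (median 14300) in the Sham Control and 7048 to 18152 (median 11684) in the 5/6Nx Control LVs, with a log2 difference of -0.31 (95% CI -0.69 to 0.08). For Col3a1 the difference was -0.44 (-0.86 to -0.01, adjusted p = 0.275). Col4a1 and Col4a2 stood at 0.02 (-0.35 to 0.39) and 0.07 (-0.31 to 0.45).

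Among PD rats 20 of 36 rows were lower and none higher in the 5/6Nx LV, where 37.8% of all genes tested were called (18.2% higher and 19.6% lower). The median log2 difference was -0.55 over the collagen rows and -0.03 over all genes. In 8 of the 36 rows tested each 5/6Nx library lay below each Sham library, as in 6.01% of all genes tested. The 20 rows called lower were 4 of 8 fibrillar, 3 of 6 type IV and 13 of 22 other chains.

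Col14a1, which coats fibrils in dense connective tissue, had the smallest p. It had 3011 to 4600 reads (median 3728) in the 6 Sham PD LVs and 603 to 2173 (median 1270) in the 7 5/6Nx PD LVs, a mean ratio of 0.332 (log2 difference -1.58 ± 0.21 SE, adjusted p = 0.00038). Col8a1 had 1054 to 1838 and 407 to 907 reads (ratio 0.410, adjusted p = 0.000681). Neither pair of groups overlapped.

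Col4a3 and Col4a4 were lower in the LV too. In PD rats Col4a3 had 714 to 1414 reads in Sham and 202 to 616 in 5/6Nx LVs (ratio 0.383, adjusted p = 0.00072), and Col4a4 had 2739 to 4423 and 769 to 2319 (ratio 0.472, adjusted p = 0.00147). The podocyte marker Nphs1 had at most 14.1 reads in any LV library. Of the podocyte markers with higher LV reads, Podxl was lower (ratio 0.742), Synpo higher (1.65) and Wt1 not called (0.793). Col4a1 and Col4a2 were not called, with log2 differences of -0.21 (95% CI -0.51 to 0.08) and -0.05 (-0.33 to 0.22).

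Among fibrillar chains, Col5a2 had 4157 to 5950 reads in Sham PD and 1724 to 3534 in 5/6Nx PD LVs (ratio 0.548, adjusted p = 0.000824), with no overlap. Col1a1 and Col3a1 were at ratios of 0.644 and 0.670 with adjusted p of 0.0479 and 0.0478. These 2 calls sit at the threshold, and under the alternatives the Col1a1 call was lost in 10 of 18, with adjusted p up to 0.112, and the Col3a1 call in 9 of 18, with adjusted p up to 0.107. Col24a1 had an LV difference of -0.11 (95% CI -0.47 to 0.24).

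Of the other classes, Col17a1, a transmembrane collagen, was at a ratio of 0.413 and Col7a1 at 0.430. Col6a1 was at 0.491, with 6583 to 10063 reads in Sham PD and 2188 to 6726 in 5/6Nx PD LVs, ranges that overlap. Col16a1 had 1334 to 2331 and 428 to 1317 reads, which do not overlap (ratio 0.507), and Col12a1 was at 0.503. Col12a1 had 346 to 677 reads in Sham PD and 137 to 329 in 5/6Nx PD LVs. The other rows lower in this comparison were Col6a2, Col5a1, Col15a1, Col6a3, Col4a6, Col8a2, Col18a1 and Col9a3, with ratios between 0.380 and 0.788. Of these, the call of Col9a3 was lost in 10 of 18 alternatives, that of Col18a1 in 6, that of Col8a2 in 5 and that of Col4a6 in 1, with adjusted p up to 0.112, 0.0886, 0.0776 and 0.0599. With 1 library left out at a time, 15 to 21 chains were lower, and the 10 chains of smallest p kept their calls in each of these fits.

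Markers of several cell types moved in the same comparison. Lower in the 5/6Nx PD LVs were 4 of 7 fibroblast markers (Pdgfra, Dcn, Lum and Tcf21), 3 of 6 pericyte and smooth muscle, 3 of 4 endothelial and 5 of 5 macrophage markers, and 4 of 5 cardiomyocyte markers were higher. Among all genes tested, 19.6% were lower and 18.2% higher. The fibroblast sum was 56010 to 66900 in Sham PD and 10170 to 37710 in 5/6Nx PD, against 40880 to 60070 in Sham Control and 12160 to 42390 in 5/6Nx Control LVs. Their part in the collagen differences was not tested. LV 5/6Nx Control replicate 1 held the lowest value of its group for 22 of 34 collagen rows and LV 5/6Nx PD replicate 1 for 19 of 34.

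Surgery effects in the 2 tissues were compared directly in Control rats. The 5/6Nx difference was larger in the kidney than in the LV for 24 of 39 rows and smaller for none (limma interaction, adjusted p under 0.05), where 33.4% of all genes were called, 16.1% in the higher and 17.3% in the lower direction. The interaction was 2.12 on the log2 scale for Col11a1 (adjusted p = 1.33e-05), 1.46 for Col24a1, 1.81 for Col4a1 and 2.90 for Col1a1 (adjusted p = 0.000376). Col11a1 was near the floor in the LV, with at most 44.1 reads in Sham Control and 0 in 4 of the 7 5/6Nx Control libraries. Of the calls, that of Col9a1 was lost in 19 of 31 alternatives, that of Col18a1 in 13 and that of Col4a6 in 1. The call of the Col23a1 row ENSRNOG00000003349 was lost in 11. Col4a3 was not called (-0.81, adjusted p = 0.0564). Limma-voom with sample quality weights called Col4a3 smaller in the kidney (-0.73, adjusted p = 0.0468), as did some of the limma fits that left 1 library out. In PD rats, where this interaction was not tested, 16 chains were called higher in the kidney and lower in the LV, and Col4a3 and Col4a4 were called lower in both. Among all genes tested in PD rats, 20.2% were called higher in the kidney and 19.6% lower in the LV. The share of all genes called in both ways was not computed, so the joint counts stand without a background.

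The effect of PD itself was the question of the study. In no tissue or surgery group did a collagen row pass the threshold for PD against Control. The rows tested were 35 in the LV of Sham rats, 35 in the LV of 5/6Nx rats, 36 in the kidney of Sham rats and 37 in the kidney of 5/6Nx rats, and the shares of all genes called were 1.23%, 0.0896%, 0.143% and 0.0121%. The study's own analysis with DESeq2 called more genes in each of these comparisons at the same adjusted threshold. A chain without a call here is therefore not shown to be unchanged. At an unadjusted p under 0.05, limma gave 7 rows higher and 0 lower in the Sham LV, where 9.58% of all genes were higher and 9.91% lower. In the 5/6Nx LV it gave 1 higher and 9 lower (of all genes 3.7% and 4.83%). In the Sham kidney 9 rows were higher and 3 lower (8.49% and 8.79%), and in the 5/6Nx kidney 4 were higher and 0 lower (2.04% and 2.14%). The median log2 difference over the collagen rows was 0.06, -0.23, 0.16 and 0.08 in this order, and over all genes between -0.01 and 0.01. Limma-voom with sample quality weights called 4 rows higher in the Sham LV (Col7a1, Col11a2, Col13a1 and Col16a1) and 0 in the other 3 comparisons.

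In Sham LVs the 3 rows of smallest p were Col13a1, Col16a1 and Col9a3. Col16a1 had 1021 to 1638 reads in Control and 1334 to 2331 in PD, a mean ratio of 1.42 (adjusted p = 0.116). Col13a1 had 51 to 88.7 reads in Control and 81.5 to 157 in PD LVs (ratio 1.60, adjusted p = 0.0978), and both pairs of groups overlapped. Without Sham PD replicate 2, Col11a2 and Col16a1 were called higher (adjusted p = 0.0165 and 0.0277). Col1a1 overlapped, with 11758 to 18376 reads in Control and 9634 to 19488 in PD.

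In 5/6Nx LVs Col12a1 had 350 to 720 reads in Control and 137 to 329 in PD, a ratio of 0.513 with no overlap and an adjusted p of 0.112. It was the only collagen row whose groups did not overlap in this comparison, as in 0.333% of all genes. Col8a1 (ratio 0.490) and Col18a1 (0.765) had adjusted p of 0.170. With all 4 LV groups in the fit, Col8a1 and Col12a1 were called lower.

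Whether PD acted differently after 5/6Nx was tested in each tissue as the interaction of surgery and PD. In the LV 2 of 37 rows were called, both in the lower direction, where 0.693% of all genes were called, 0.331% in the higher and 0.362% in the lower direction. Col12a1 had a log2 difference of 0.26 for PD in Sham and -0.74 in 5/6Nx LVs (interaction -1.0 ± 0.23 SE, adjusted p = 0.0425), and Col7a1 of 0.40 and -0.56 (interaction -0.97 ± 0.23 SE, adjusted p = 0.0468). Col18a1 followed with -0.59 and an adjusted p of 0.0549. With 1 library left out at a time, the Col12a1 call was lost in 15 and the Col7a1 call in 18 of 26 fits, with adjusted p up to 0.0833 and 0.0991. The number of chains called was then 0 in 14 of the 26 fits, 4 without Sham PD replicate 6, 5 without Sham PD replicate 2 and 7 without 5/6Nx Control replicate 1.

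**Figure D4:**
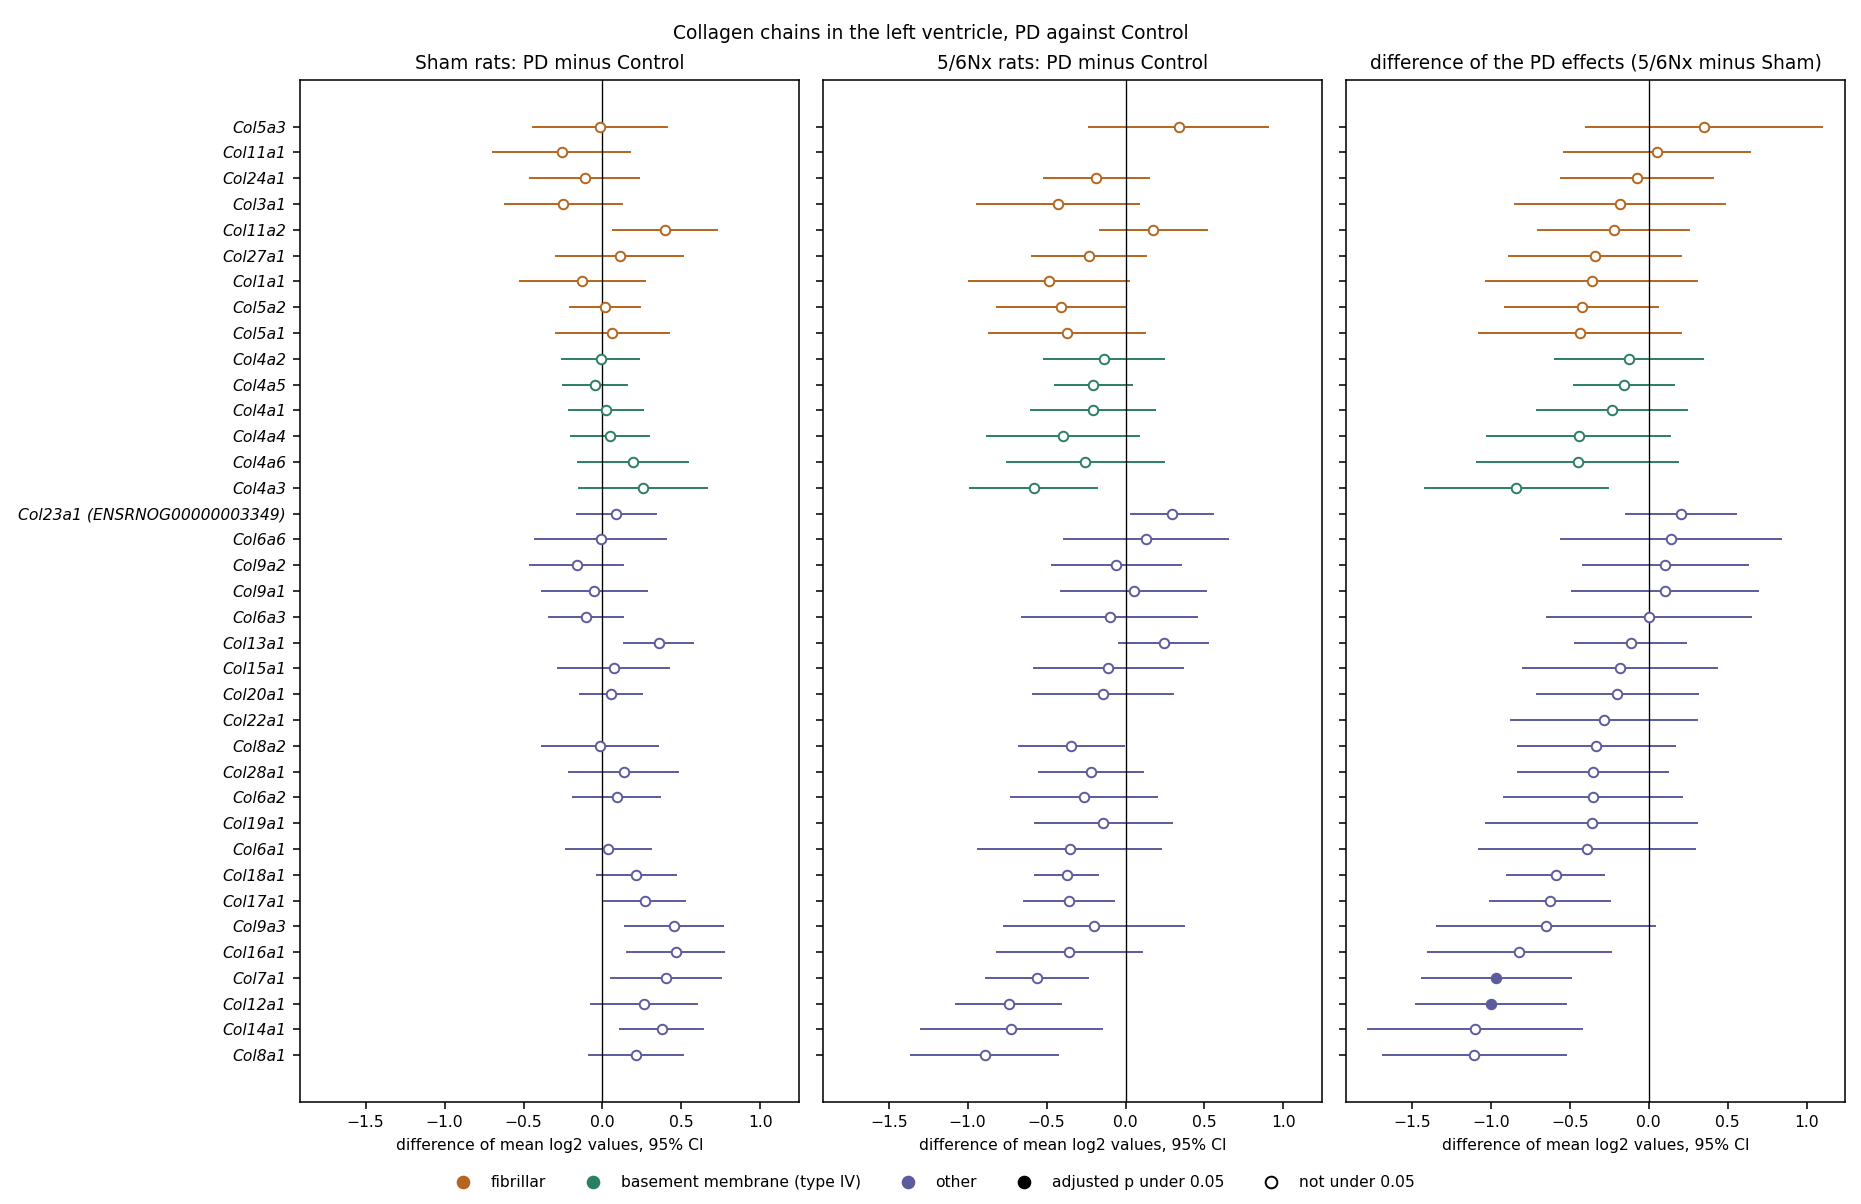
Difference of the mean log2 value, PD minus Control, in LVs of Sham rats (left) and 5/6Nx rats (middle), and the difference of the 2 PD effects (right), for 37 collagen rows. Points are limma estimates, lines 95% confidence intervals, colours the class and filled points an adjusted p under 0.05. No point is filled in the left and middle panels, and Col12a1 (-1.0) and Col7a1 (-0.97) are filled in the right panel.

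In the kidney no interaction passed the threshold among 38 collagen rows or among all 17096 genes tested (limma, 0% called). At an unadjusted p under 0.05 there were 0 collagen rows in the higher and 1 in the lower direction, of all genes 2.26% and 2.22%. That row, Col4a6, had an interaction of -0.48 (adjusted p = 0.954), and limma-voom with sample quality weights called 0 collagen rows. The rows of smallest p for PD in Sham kidneys were Col6a6 (ratio 0.592), Col4a3 (0.740) and Col16a1 (1.47), with adjusted p of 0.134 to 0.142. Those in 5/6Nx kidneys were Col4a4 (1.42), Col5a3 (1.73) and Col6a1 (1.75), all with an adjusted p of 0.9999. For Col1a1 the log2 difference of PD against Control in 5/6Nx kidneys was 0.97 (95% CI -0.08 to 2.02).

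Genes that fold, process and bind collagen were counted as lists. In the kidney of 5/6Nx Control rats, 9 of 12 extracellular processing and cross-linking genes were higher and 1 lower, and in PD rats 8 were higher and 2 lower. Of all genes 24.4% were higher and 27.7% lower in Control rats and 20.2% and 19.9% in PD rats. Among them were Bmp1, the procollagen C-proteinase (2.65-fold, adjusted p = 3.01e-06), and Loxl1, a lysyl oxidase (4.55-fold), in Control rats, and Adamts2, the procollagen N-proteinase (6.77-fold), and Lox (6.10-fold) in PD rats. Of the folding and modification genes, 7 of 17 were higher and 4 lower in Control rats and 8 of 18 higher and 4 lower in PD rats, so that the lower counts were near the shares over all genes. P3h3, of the prolyl 3-hydroxylase family, was higher (2.93-fold in Control) and Mia3, which loads procollagen into export carriers, lower (ratio 0.496). The median over the processing list was 1.16 on the log2 scale in Control rats, against -0.01 over all genes.

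Fibril-binding proteoglycans rose in 3 of 7 (Control, where 24.4% of all genes were higher) and 5 of 7 (PD, 20.2%). Lum, the lumican, which like Dcn is also in the fibroblast list, went from 2.57 to 16.3 reads in Sham Control to 34 to 686 in 5/6Nx Control kidneys. Of the receptors, 3 of 8 and 4 of 9 were higher, led by Itga11, a subunit of a fibrillar collagen integrin (8.25-fold and 6.76-fold). Basement membrane partners of type IV were higher in 3 of 10 and lower in 1 of 10 in Control rats, where Pxdn, the peroxidasin that cross-links type IV collagen, was 3.09-fold higher. In PD rats 2 of 10 were higher. The shares of this list that were higher are near those over all genes.

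In the LV of PD rats the same lists pointed down after 5/6Nx, with 8 of 17 folding, 7 of 12 processing, 5 of 9 receptor, 5 of 7 proteoglycan and 5 of 10 basement membrane genes lower and none of these higher, where 19.6% of all genes were lower and 18.2% higher. Ddr2, a receptor for fibrillar collagen, was at a ratio of 0.345 and Nid1, which links type IV collagen to laminin, at 0.547. In the LV of Control rats no gene of these lists was called (limma), with 3 genes higher and 14 lower at an unadjusted p under 0.05, of all genes 7.77% and 9.69%.

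For PD against Control, 2 genes of the lists were called here, each in Sham rats and each in the folding list. In the Sham LV it was 1 gene among 17 folding, 12 processing, 9 receptor, 7 proteoglycan and 10 basement membrane genes tested. This count is near the share over all genes, of which 1.23% were called. In the Sham kidney it was 1 among 17, 12, 8, 7 and 10 in this order, where 0.143% of all genes were called. The study's DESeq2 analysis also listed Lum, of the proteoglycan list, as higher with PD in Sham kidneys. P4ha1, a catalytic subunit of prolyl 4-hydroxylase, had 1947 to 2240 reads in Sham Control and 3010 to 8492 in Sham PD LVs, 2.18-fold apart with no overlap (adjusted p = 0.0268). Serpinh1, the collagen chaperone HSP47, had 5233 to 6323 reads in Sham Control and 6526 to 11331 in Sham PD kidneys, 1.56-fold apart with no overlap (adjusted p = 0.0458). No collagen chain was called in these 2 comparisons.

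Chains that assemble into 1 trimer varied together across rats. Deviations from the group means were correlated over the 26 libraries of a tissue for 3 pairs, 6 relations in all, with 100000 permutations within groups. For Col4a1 and Col4a2, Pearson's r was 0.926 in the LV and 0.911 in the kidney (Spearman's rho 0.927 and 0.900), and for Col6a1 and Col6a2 it was 0.917 and 0.932 (rho 0.921 and 0.931), each with an adjusted permutation p of 1e-05, the smallest these permutations can give. For Col4a3 and Col4a4, r was lower, at 0.547 in the LV (adjusted permutation p = 0.0075, rho 0.710 with 0.00032) and 0.588 in the kidney (adjusted permutation p = 0.004, rho 0.582 with 0.0039). Without the 2 libraries farthest from the median of the first chain, r was between 0.556 and 0.939 over the 6 relations. Within single groups r ranged from 0.842 to 0.971 for Col4a1 and Col4a2 and from 0.096 to 0.932 for Col4a3 and Col4a4. In each pair the genes are neighbours in the RefSeq annotation, and the 2 values of a library share its depth and tissue composition. No correlation was run for chains of different trimers, so these values do not set trimer partners apart from other pairs of genes.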

How the data were processed

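Polyadenylated RNA of 26 LV and 26 kidney libraries was analysed. Per the labels and the methods of the study, the authors trimmed reads with Trim Galore and cutadapt, aligned them to rn6 with HISAT2 (2.1.1 in the submitters' processing notes), quantified genes with StringTie2 and normalized with DESeq2. The authors deposited 1 table of log2 values, which follow the DESeq2 variance stabilising transformation over all 52 libraries with 5.9187 for 0 reads. On this scale 10, 100 and 1000 normalized reads lie at 6.50, 7.67 and 10.13. Inverting it gave normalized reads and, from these, whole reads (100% of values whole within 0.01 reads). The authors also deposited their own fold changes and p-values for PD against Control, which were not used. Of the table rows 1008 share a gene name with another row.

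Groups were compared with limma 3.58.1 (trend and robust settings, R 4.3.3) on the log2 values of the genes with 10 or more normalized reads in a number of libraries equal to the size of the smaller group, with Benjamini-Hochberg adjustment over these genes and a threshold of 0.05. Each fit held the libraries of the groups compared. Means, SD and folds are of normalized reads. Permutation tests were two-sided, and the procedure was tested on simulated data. The alternatives were no filter, log2 of normalized reads plus 1, limma-voom on whole reads (with sample quality weights), all 4 groups of the tissue in 1 fit (comparisons of 2 groups within a tissue), size factors within the fit, leaving out each library and, for the comparisons across tissues and chosen after seeing the data, kidney and LV pairs by title number as a block. The correlation of Col1a1 with Col1a2 was planned and could not be run, since Col1a2 is not analysed here.

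Named chains were up to 10 called chains of smallest adjusted p per comparison, the 3 of smallest p where fewer than 3 passed, and Col1a1, Col3a1, Col4a1 and Col4a2 in each surgery comparison. Other chains are named to complete a class, and up to 3 genes per companion list. The members and lists were chosen with earlier results of these data known. Gene symbols matched 43 of 43 rows in RefSeq, whose assembly differs from rn6, so no coordinates are given. Counts and sums of the podocyte marker list, 1 item of which is not reported here, are left out.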

Additional observations from a re-analysis of the deposited data

Results flagged for a closer look

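Among 26 named chains, 201 sets of 1 chain in 1 group were examined for a library far from the others, and 10 were found, where chance gives about 1 in 20. LV 5/6Nx Control replicate 1 accounts for 3 of them, with 817 normalized reads of Col14a1 (the others 1750 to 2910), 0 of Col4a6 (45.1 to 78.2) and 0 of Col9a3 (48.4 to 91.2). In 5/6Nx PD LVs, Col16a1 was at 428 in replicate 1 (the others 841 to 1320) and Col4a6 at 0 in replicate 7 (18.6 to 60.3). Col4a3 was at 473 in LV Sham Control replicate 1 (875 to 1230). In Sham PD kidneys, Col4a6 was at 54.1 in replicate 6 (118 to 168), Col5a3 at 133 in replicate 4 (55.9 to 70.9) and Col7a1 at 249 in replicate 5 (126 to 161). Col6a6 was at 597 in kidney Sham Control replicate 6 (931 to 1200). The cause of these values was not tested.

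Chains whose effects differed between groups by an interaction test were Col12a1 and Col7a1 for surgery and PD in the LV (log2 differences -1.0 and -0.97). Their calls were lost in 15 and 18 of the 26 fits that left 1 library out, and both were lost with no filter. For tissue and surgery in Control rats, the 10 chains of smallest p were larger in the kidney than in the LV by 2.12 (Col11a1), 1.46 (Col24a1), 1.81 (Col4a1), 2.37 (Col15a1), 2.32 (Col6a2), 1.82 (Col8a1), 2.90 (Col1a1), 1.30 (Col4a2), 1.91 (Col5a2) and 2.46 (Col6a1). Each of these 10 kept its call in all 26 fits that left 1 library out. Col11a1 was near the floor in the LV, with at most 44.1 reads in any Control library.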

How the results depend on the processing

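The number of collagen chains called for 5/6Nx against Sham in the kidney (26 and 25) and in the LV of PD rats (20), for kidney against LV (32) and for tissue by surgery (24) stayed within 1.5 times under each alternative. With 1 library left out at a time the ranges were 26 to 28, 25 to 27, 15 to 21, 30 to 32 and 21 to 25. PD against Control in the kidney and the kidney interaction stayed at 0. Counts in the other LV comparisons moved. Limma-voom with sample quality weights gave 4 for PD in Sham LVs, 2 for 5/6Nx in Control LVs and 7 for the LV interaction, and no filter gave 0 for the last. All 4 LV groups in 1 fit gave 2 for PD in 5/6Nx LVs. With 1 library left out the counts were 0 to 2, 0 to 3, 0 to 7 and 0 to 0 for these 4 in the same order. A few differences near 0 changed sign. For 5/6Nx in Control LVs, Col4a1 was at -0.02 under limma-voom and at -0.08 to 0.11 with 1 library left out, and Col4a2 at -0.02 to 0.19. In PD LVs Col4a2 was at -0.14 to 0.00. The cause of these shifts was not tested. The labels do not state which kidney and LV came from 1 rat, but the title numbers of 26 kidney and 26 LV libraries with like surgery and treatment lie 26 apart. Deviations from the group means, over 16282 genes, correlated by a median of 0.136 between these partners (-0.265 to 0.378), over 0.1 in 16 of 26 pairs. The partner was the best match in its group of 6 or 7 libraries for 14 of the 26. With the others of the group, the median correlation of a kidney library was between -0.269 and 0.089. A fit with these pairs as a replicate block, chosen after seeing the data, called 33 chains for kidney against LV and 23 for tissue by surgery, where Col4a3 was then called (-0.81, adjusted p = 0.0199, limma) and Col18a1 and Col9a1 were not. No paired analysis was possible within a tissue, where the groups hold different rats. Size factors within the fit moved the median of all genes by less than 0.03 on the log2 scale. In rows of under 10 reads depth limits what can be seen.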
